A study of Mus musculus with 8 samples.

Results

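The 8 myosin heavy chain genes described here are *Myh1*, *Myh2*, *Myh3*, *Myh4*, *Myh7*, *Myh8*, *Myh9* and *Myh10*. They were chosen by name from the 27179 genes of the deposited expression table and from the deposited lists of N6-methyladenosine (m6A) peaks, and all 8 were present in both. The cells were C2C12, a mouse myoblast line that proliferates in rich medium and forms multinucleated myotubes in low serum, so every library came from a single cell line. GM cells were collected at 50% confluence in high glucose DMEM with 10% fetal bovine serum, and 3d DM cells were switched at over 90% confluence to the same DMEM with 2% horse serum and collected after 3 days, all on collagen-coated dishes. Each state had 2 input libraries, which are RNA-seq of the fragmented polyadenylated RNA, and 2 libraries of the same kind of RNA after immunoprecipitation with an antibody against m6A (MeRIP-seq).

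A myosin heavy chain is the motor subunit of a myosin. Its amino-terminal head binds actin and hydrolyses ATP, and its carboxy-terminal part forms a coiled-coil rod through which the molecules assemble into filaments. *Myh3* encodes the embryonic and *Myh8* the perinatal sarcomeric chain, *Myh2*, *Myh1* and *Myh4* encode the fast chains of adult type IIa, IIx and IIb fibres, and *Myh7* encodes the slow chain that is also the beta chain of the heart. *Myh9* and *Myh10* encode the heavy chains of nonmuscle myosin IIA and IIB, which drive cortical tension, migration and cytokinesis.

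In GRCm38, *Myh3* (chr11:67078300-67102291), *Myh2* (chr11:67171027-67197517), *Myh1* (chr11:67200052-67224575), *Myh4* (chr11:67238029-67260446) and *Myh8* (chr11:67277124-67308634) lay next to each other on the plus strand. *Myh10* (chr11:68691559-68816632) was farther along the same chromosome, and *Myh7* (chr14:54970684-54994626) and *Myh9* (chr15:77760587-77842175) lay on the minus strand of other chromosomes. The genes of the chromosome 11 cluster resemble each other closely. Of the bases of the reference transcript, 50.1% in *Myh1*, 49.2% in *Myh2*, 39.7% in *Myh8* and 37.4% in *Myh4* fell in 50-base words that also occur in another gene, against 14.3% in *Myh3*. In *Myh7* the share was 42.5%, through *Myh6*, and in *Myh9* and *Myh10* it was 2.00% and 1.59%. How reads that match several genes were counted is not given in the sources used here, so the split of signal among *Myh1*, *Myh2*, *Myh4*, *Myh8* and *Myh7* is uncertain.

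The expression table gives 1 normalized value per gene and library, with no unit stated, and sequencing depth cannot be read from it. *Myog*, the transcription factor that starts terminal differentiation, read 1008 and 221 in GM versus 5392 and 11502 in 3d DM, and *Mki67*, a marker of dividing cells, read 3586 and 3659 in GM versus 446 and 760 in 3d DM. GM replicate 1 was higher than GM replicate 2 for the myotube markers *Ckm* (110 against 17.1) and *Mymk* (698 against 101) as well as *Myog*. Of markers of other cells, all 4 of adipocytes were listed at 0. Of 4 fibroblast markers *Dcn* and *Col1a1* were called higher, with sums of 205 to 665 in GM and 1633 to 2285 in 3d DM and with *Lum* at 0.00104 to 3.11. *Dcn* read 430 and 17.1 in GM versus 409 and 685 in 3d DM, so its values overlapped between states. Of 4 smooth muscle markers *Acta2* rose (sums 5475 to 10523 and 15017 to 26720), with *Myh11* at 0 to 6.01. Of 4 cardiomyocyte markers *Myh6* rose (sums 21.1 to 28.4 and 394 to 590), with *Nppa* at 0 to 3.41. The part of these cell types in the results was not tested.

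The first comparison asked which myosin heavy chain genes changed between proliferation and 3 days of differentiation. All 6 sarcomeric genes were higher in 3d DM, by 61.6-fold to 155-fold in the ratio of means. Both nonmuscle genes were lower in the deposited values without passing the test. Genes were tested with limma on log2(value + 1) over 11406 genes, and 7.01% of them were called higher and 9.96% lower in 3d DM at an adjusted p of 0.05. Of the 8 members 6 were called higher and 0 lower by limma, and 1, *Myh10*, was lower at an unadjusted p under 0.05. *Myh2*, *Myh4*, *Myh7* and *Myh8* passed the filter on low values only through the 3d DM libraries, so they had to differ and their calls are no support for the count. Of the 4 members above the filter in every library, *Myh3* and *Myh1* were called higher and *Myh9* and *Myh10* were not called. For all 8 genes the deposited values of the 2 states did not overlap, 6 being higher and 2 lower in 3d DM. For *Myh2*, *Myh4*, *Myh7* and *Myh8* the filter fixed this in advance. Only *Myh1* and *Myh3*, which were higher, and *Myh9* and *Myh10*, which were lower, could have overlapped. Both 3d DM values lay above both GM values in 16.8% of the tested genes and below them in 37%. The median log2 difference over all tested genes was -0.22, and it was 0.00 after rescaling by median-of-ratios factors.

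The embryonic gene *Myh3* read 1068 and 273 in the GM libraries and 33485 and 51674 in the 3d DM libraries. GM replicate 1, the library with more *Myog*, was also the higher one for *Myh3*, and both GM libraries were far under both 3d DM libraries. The mean rose 63.5-fold, with a log2 difference of 6.26 ± 0.41 (SE, n = 2 in each state, limma adjusted p = 5.63e-50). Without GM replicate 1 the difference was 7.25, and without GM replicate 2 it was 5.28. *Myh8*, the perinatal gene, was nearly silent in GM with values of 4.12 and 8.02 and reached 913 and 973 in 3d DM. Its 2 states were the farthest apart of all members, by 7.12 ± 0.53 on the log2 scale (SE, n = 2 in each state, limma adjusted p = 3.70e-38), the 9th largest difference of the 11406 tested genes. *Myh8* passed the filter on low values only through 3d DM, so this rank is no support for the change. With 0.1 in place of 1 added to each value its difference was 7.33, and with 4 it was 6.58.

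The adult fast genes followed the same direction with different balance between the replicates. *Myh1* read 161 and 187 in GM versus 13930 and 8833 in 3d DM, a difference of 5.99 ± 0.42 (SE, n = 2 in each state, limma adjusted p = 1.25e-42). *Myh2* read 20.0 and 18.1 in GM versus 1508 and 908 in 3d DM, a difference of 5.87 ± 0.49 (limma adjusted p = 8.54e-31). *Myh4* read 9.30 and 19.1 in GM versus 1835 and 514 in 3d DM, a difference of 6.08 ± 0.50 (limma adjusted p = 4.65e-31). All 3 were higher in 3d DM replicate 1 than in 3d DM replicate 2, whereas *Myh3* and *Myh7* were higher in 3d DM replicate 2. Like that of *Myh3*, the value of *Myh4* depended on the library, with a difference of 5.16 without 3d DM replicate 1 and of 7.0 without 3d DM replicate 2. The slow gene *Myh7* read 22.1 and 19.1 in GM versus 918 and 1617 in 3d DM, a difference of 5.82 ± 0.49 (limma adjusted p = 1.13e-30). *Myh1*, *Myh2* and *Myh7* overlap annotated antisense genes (*Myhas*, *9430073C21Rik*, and *Mhrt*, *Gm29015* and *Gm31251*). The library kit marks strand, but whether the counting used it is not given in the sources used here, so the sense and antisense transcripts cannot be told apart.

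The nonmuscle genes changed far less. *Myh9* read 14236 and 17193 in GM versus 9515 and 13507 in 3d DM, with a mean ratio of 0.733. Its log2 difference of -0.46 ± 0.40 (SE) did not pass the test (limma adjusted p = 0.527). *Myh10* read 1645 and 1680 in GM versus 665 and 955 in 3d DM, with a mean ratio of 0.487. Its log2 difference of -1.06 ± 0.43 (SE) also missed the threshold (limma adjusted p = 0.0680). Relative to the typical gene the gap was smaller. After median-of-ratios rescaling *Myh9* differed by -0.24 (limma adjusted p = 0.553), with values that overlapped between the states. *Myh10* differed by -0.83 and was then called lower (limma adjusted p = 0.0222).

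With the deposited values the standard errors of the fit followed the mean level and hardly a gene's own replicates, so these p-values do not measure the spread of 1 gene. After rescaling by median-of-ratios factors a gene's own spread entered the fit. There *Myh1* and *Myh3*, which were above the filter in every library, remained called higher with adjusted p of 0.00129 and 0.00201 (limma). *Myh2*, *Myh4*, *Myh7* and *Myh8* were also called (limma adjusted p of 0.000810 to 0.00580). They passed the filter only through 3d DM, so their calls add no support. Nothing in the labels says that replicates came from separate cultures grown at different times, and the p-values cover only the spread between these libraries.

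**Figure D1:**
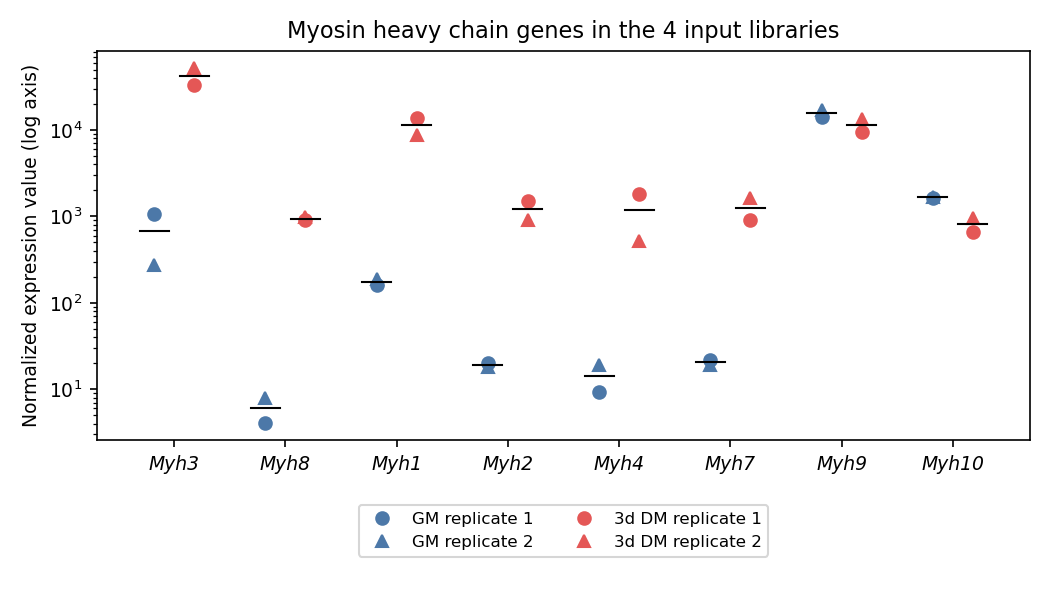
Normalized expression value (log axis) of each myosin heavy chain gene in the 2 GM and 2 3d DM input libraries, with short lines at the mean of each state. The 6 sarcomeric genes lie between 4.12 and 1068 in GM and between 514 and 51674 in 3d DM. *Myh9* and *Myh10* are lower in 3d DM, with ratios of means of 0.733 and 0.487.

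The next comparison asked how the pool of heavy chain transcripts was made up. Values were divided by the length of all exons of the gene, so that levels could be compared between genes. In GM the nonmuscle genes made up 85.8% and 94.7% of the summed value per kb of the 8 genes (mean 90.2% ± 6.33, SD, n = 2). In 3d DM they made up 8.67% and 9.84% (mean 9.26% ± 0.830, SD, n = 2). The share fell by 81.0 percentage points between states that do not overlap, and the two-sided exact permutation test gave p = 0.33, the smallest value that 2 libraries against 2 allow.

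The order of the levels per kb also changed. In GM, *Myh9* came first with 1101 and 1330 per kb, followed by *Myh10* with 157 and 161 and *Myh3* with 176 and 45.1, which overlapped *Myh10*. *Myh1* stood at 25.3 and 29.4, and *Myh2*, *Myh7*, *Myh4* and *Myh8* stood between 0.350 and 3.17. In 3d DM, *Myh3* came first with 5528 and 8531 per kb, followed by *Myh1* with 2193 and 1390 and *Myh9* with 736 and 1045. *Myh4*, *Myh2* and *Myh7* overlapped each other between 85.4 and 305 per kb. *Myh8* and *Myh10* overlapped at the low end, between 63.6 and 91.4. Part of this order depended on the length used. With the longest coding transcript in place of all exons, *Myh9* in 3d DM was at 1280 and 1817 and overlapped *Myh1* at 2291 and 1452, and *Myh9* was the higher of them in 3d DM replicate 2. *Myh8* at 148 and 158 and *Myh10* at 85.3 and 123 then no longer overlapped in 3d DM, nor did *Myh10* at 211 and 216 and *Myh3* at 177 and 45.3 in GM.

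Among the 6 sarcomeric genes alone, *Myh3* was the main transcript in every library, with 84.4% and 54.3% of their summed value per kb in GM versus 65.6% and 82.0% in 3d DM. *Myh1* was the next with 12.1% and 35.4% in GM versus 26.0% and 13.4% in 3d DM. The ranges of the states overlap for both genes, so no difference between states in the make-up of the sarcomeric group stood out from the spread between replicates. The adult fast genes *Myh2* and *Myh4* and the slow gene *Myh7* each made up 0.740% to 3.81% of the sarcomeric sum in every library, and *Myh8* made up 0.167% to 0.921%.

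**Figure D2:**
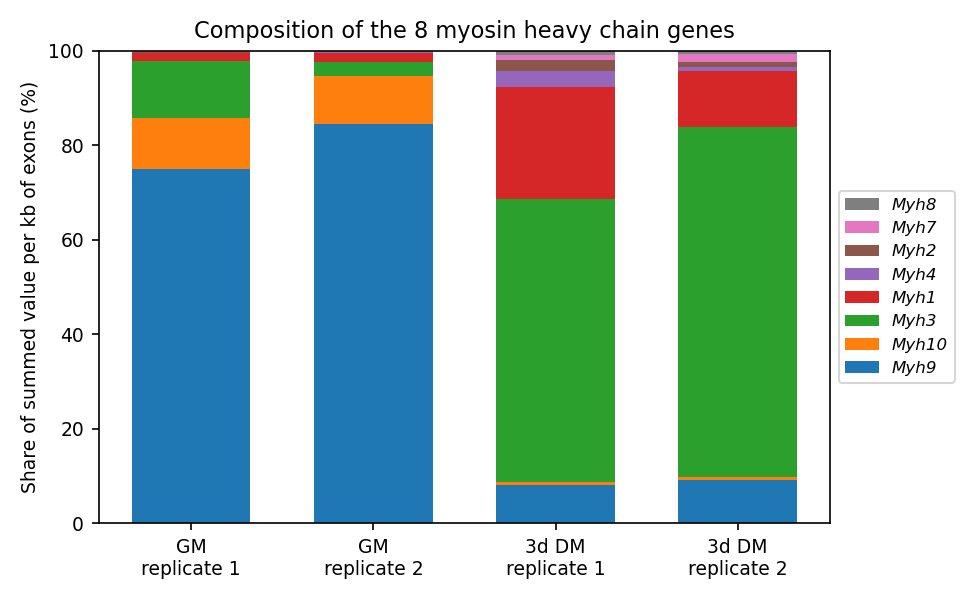
Share of each gene in the summed value per kb of exons of the 8 myosin heavy chain genes (axis in percent), 1 stacked bar per input library. *Myh9* and *Myh10* fill 85.8% and 94.7% of the GM bars and 8.67% and 9.84% of the 3d DM bars, where *Myh3* and *Myh1* take their place.

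The promoters of the members are shown because 4 of the clustered genes that rose together share a stretch of sequence. The RefSeq promoter table (GRCm38) held all 8 members, and the 250 bases before the start were searched on both strands. *Myh1*, *Myh2*, *Myh4* and *Myh8* share a word of 9 letters and, downstream of it, a word of 14 letters, found by comparing these 4 windows with each other. The stretch from the start of the one to the end of the other is given below from 5′ to 3′ on the plus strand, with the shared words in capitals. It lies at chr11:67199886-67199955 in *Myh1*, chr11:67170854-67170915 in *Myh2*, chr11:67237625-67237667 in *Myh4* and chr11:67277020-67277083 in *Myh8*.
Myh1: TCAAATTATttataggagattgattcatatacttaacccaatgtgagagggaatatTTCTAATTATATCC
Myh2: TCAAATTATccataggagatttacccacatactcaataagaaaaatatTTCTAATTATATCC
Myh4: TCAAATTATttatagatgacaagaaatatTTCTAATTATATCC
Myh8: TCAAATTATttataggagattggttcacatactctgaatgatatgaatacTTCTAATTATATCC

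The 14-letter word occurs in 4 of the 32851 promoters of the table (0.0122%), which are these 4, and the 9-letter word in 57 (0.174%). The printed stretch ends 146, 111, 144 and 40 bases before the start of *Myh1*, *Myh2*, *Myh4* and *Myh8*. A match to the MEF2 site, the A/T-rich element bound by MEF2 factors, occurs in *Myh1*, *Myh4* and *Myh8* and in 2.92% of all promoters, and it overlaps the 9-letter word. The E box CAGCTG occurs in *Myh4* and *Myh10* and in 13% of promoters. The looser E box CANNTG, which contains it, occurs in 6 members and in 66.2% of promoters. *Myh9* was the member with the GC box GGGCGG, which 32.7% of promoters hold. These matches describe the letters in the window and were not tested for binding.

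Of the 6 remaining heavy chain genes, *Myh6*, *Myh7b* and *Myh13* passed the filter, through the 3d DM libraries alone, and all 3 were higher there. *Myh6*, the alpha chain of the heart, read 4.12 and 8.02 in GM versus 373 and 569 in 3d DM, a log2 difference of 6.09 ± 0.56 (limma adjusted p = 4.05e-25). It shares 22.2% of the 50-base words of *Myh7*. *Myh7b* read 6.27 and 7.02 in GM versus 462 and 489 in 3d DM (5.96 ± 0.55, limma adjusted p = 1.05e-24). *Myh13*, the extraocular chain, read 7.51 and 0.00637 in GM versus 285 and 352 in 3d DM (6.76 ± 0.63, limma adjusted p = 5.25e-25), and it missed the threshold without 3d DM replicate 1 (adjusted p = 0.0691) and without 3d DM replicate 2 (adjusted p = 0.0585). *Myh11*, the smooth muscle chain, *Myh14*, the chain of nonmuscle myosin IIC, and *Myh15* stayed at 0 to 13.9 in every library and were not tested.

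Myosin light chains bind the neck of the heavy chain. Of the 11 light chain genes, 9 were tested, with a median log2 difference of 3.97. In 3d DM 5 were higher, 0 were lower (1 at an unadjusted p under 0.05), and 4 did not pass. The shares over all tested genes were 7.01% higher and 9.96% lower. *Myl4*, the embryonic and atrial essential chain, read 138 and 88.3 in GM versus 17984 and 21267 in 3d DM, a difference of 7.46 ± 0.42 (limma adjusted p = 4.42e-66). *Mylpf*, the fast regulatory chain, read 2055 and 438 in GM versus 52875 and 49642 in 3d DM (5.75 ± 0.40, limma adjusted p = 6.05e-43), and *Myl1*, the fast essential chain, read 937 and 179 in GM versus 12163 and 11893 in 3d DM (4.87 ± 0.41, limma adjusted p = 1.89e-29). *Myl2*, the slow and ventricular regulatory chain, was listed at 0 in both GM libraries and read 507 and 322 in 3d DM, through which alone it passed the filter. With the filter met in all 4 libraries 4 of 8 light chain genes were higher. Without 3d DM replicate 1, 2 of the 9 were higher, and *Myl1* and *Mylpf* had adjusted p of 0.0700 and 0.0520. Without 3d DM replicate 2, 4 were higher and *Myl1* was at 0.0534.

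Of the 17 genes for myosin folding and thick filament partners, 16 were tested, with a median log2 difference of 4.97. Among them 14 were higher, 1 was lower and 1 did not pass, against 7.01% higher and 9.96% lower over all tested genes. The list was chosen with earlier results of these data known. *Unc45b*, the muscle chaperone that folds the myosin head, read 22.4 and 1.02 in GM versus 857 and 1318 in 3d DM (7.27 ± 0.53, limma adjusted p = 1.72e-40). *Mybph*, a myosin-binding protein of the thick filament, read 231 and 60.2 in GM versus 7459 and 13608 in 3d DM (6.40 ± 0.43, limma adjusted p = 1.60e-47). *Mybpc1* and *Mybpc2*, the slow and fast forms of myosin-binding protein C, rose from at most 2.14 to between 93.4 and 204. The gene that fell was *Hsp90aa1*, a general chaperone named here after its values were seen, from 10807 and 12716 to 3169 and 5302 (log2 difference -1.52, limma adjusted p = 0.00184). It lost its call without GM replicate 2 (adjusted p = 0.116) and without 3d DM replicate 1 (adjusted p = 0.171). The count of higher genes was 4 of 16 without 3d DM replicate 1, where *Unc45b* and *Mybpc1* had adjusted p of 0.0667 and 0.0520, and 6 of 16 without 3d DM replicate 2, where *Unc45b* was at 0.0606. *Unc45b*, *Mybpc1* and *Mybpc2* passed the filter only through 3d DM, and with the filter met in all 4 libraries the count was 8 of 10.

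Nonmuscle myosin is switched on by phosphorylation of its regulatory light chain. A list of 15 genes for myosin regulation was used, not limited to forms that act on nonmuscle myosin. Of these, 14 were tested, with a median log2 difference of -0.08. Over all tested genes 7.01% were called higher and 9.96% lower. In this list 3 were higher, 0 were lower (1 at an unadjusted p under 0.05) and 11 did not pass. The 3 were *Mylk4* (3.87 ± 0.48, limma adjusted p = 7.10e-14), *Mylk*, the myosin light chain kinase of smooth muscle and nonmuscle cells (3.80 ± 0.56, limma adjusted p = 7.50e-10), and *Ppp1r12b*, a myosin phosphatase targeting subunit (2.30 ± 0.57, limma adjusted p = 0.000645). *Mylk* and *Ppp1r12b* passed the filter only through the 3d DM libraries and so had to differ, and with the filter met in all 4 libraries 1 of 12 was higher. *Mylk* rose from 22.2 and 8.04 to 202 and 201, and *Mylk4* from 39.8 and 49.2 to 508 and 858. Without 3d DM replicate 1 or without 3d DM replicate 2 the count was 1, with *Mylk* at adjusted p of 0.0767 and 0.0560 and *Ppp1r12b* at 0.103 and 0.0819.

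Of 12 genes for muscle regulatory factors, 11 were tested, with a median log2 difference of 0.07. Here 5 were higher, 2 were lower and 4 did not pass, beside 7.01% higher and 9.96% lower over all tested genes. *Mef2c* rose from 81.0 and 68.2 to 2742 and 2182 (5.02 ± 0.45, limma adjusted p = 8.68e-27), and *Tead4* from 170 and 201 to 679 and 1200 (2.28 ± 0.45, limma adjusted p = 7.31e-06). *Myog* had a difference of 4.06 ± 0.42 (limma adjusted p = 2.60e-20). *Myf5*, a factor of the undifferentiated myoblast, fell from 397 and 355 to 58.5 and 121 (log2 difference -2.14, limma adjusted p = 0.000118), and *Eya1*, named after its values were seen, fell from 502 and 217 to 105 and 108 (limma adjusted p = 0.00607). *Eya1* lost its call without GM replicate 1 (adjusted p = 0.534), without 3d DM replicate 1 (adjusted p = 0.253) and without 3d DM replicate 2 (adjusted p = 0.155). The higher count was 3 without GM replicate 1 and 3 without GM replicate 2. It was 2 without 3d DM replicate 1, where *Myog* was at 0.0662 and *Myf5* at 0.104, and 1 without 3d DM replicate 2, where *Myog* was at 0.0836 and *Tead4* at 0.0546. With the replicate block it was 3.

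**Figure D3:**
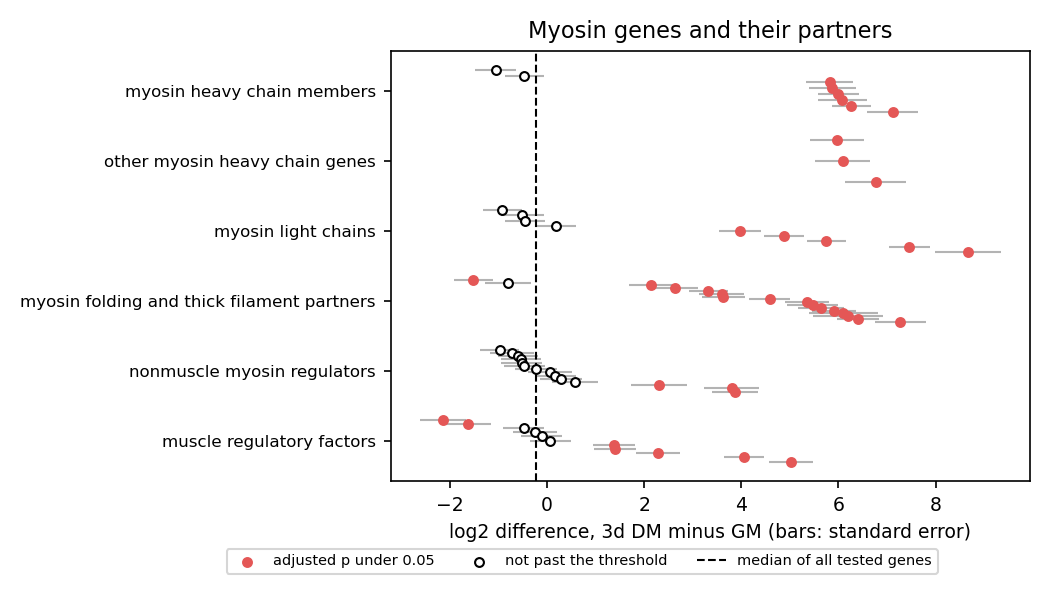
Log2 difference of 3d DM minus GM (horizontal axis) with its standard error for every tested gene of the members and of the 5 related lists, filled where the limma adjusted p is under 0.05, with a dashed line at -0.22, the median of all tested genes. The 6 sarcomeric members lie between 5.82 and 7.12 and the nonmuscle members at -0.46 and -1.06.

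Genes with a pattern over the 4 input libraries like that of *Myh3* and *Myh9* were sought by the distance of the centred log2 values. Candidates were tested genes with at least 10% of the member's mean value, outside the members, the gene lists and the cell markers. Listed genes such as *Mybph* were therefore not ranked and may lie nearer. The nearest to *Myh3* of 567 candidates were *Casq2* (distance 0.236), which encodes the calcium-binding calsequestrin of the sarcoplasmic reticulum, *Tnni1* (0.358) and *Tnnc1* (0.558), which encode slow troponin I and slow troponin C. *Casq2* read 210 and 55.2 in GM versus 8133 and 11685 in 3d DM, with the same excess of GM replicate 1 over GM replicate 2 and of 3d DM replicate 2 over 3d DM replicate 1 as *Myh3*. The nearest to *Myh9* of 1073 candidates were *Abcf2* (0.0307), *Cct4* (0.0622), a subunit of the cytosolic chaperonin, and *Rnf187* (0.0667). *Abcf2* read 1508 and 1782 in GM versus 999 and 1440 in 3d DM.

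The MeRIP-seq lists were used to ask where on the members m6A peaks were called and whether this differed between states. exomePeak called them for each immunoprecipitated library against its own input, and the fold enrichment is the ratio of immunoprecipitated over input signal that it gave. In GM, 5 and 6 of the 8 members had a peak, and in 3d DM all 8 had one in both libraries. The members carried 17 and 13 distinct peaks in GM (mean 15.0 ± 2.83, SD, n = 2) and 22 and 27 in 3d DM (mean 24.5 ± 3.54, SD, n = 2). The counts do not overlap between states, with p = 0.33 in the two-sided exact permutation test, the smallest it can give. This separation rests on *Myh4*, *Myh7* and *Myh8*, with 0, 0 and at most 1 distinct peaks in GM and 2, 4 and 3 in each 3d DM library. These genes passed the filter on low values only through 3d DM, so neither count is support for a difference between states. Over the members with a peak in all 4 libraries, the numbers of distinct peaks overlapped between states. Over all genes the lists held 31194 and 26568 peak lines in GM and 31221 and 23785 in 3d DM. These lay on 7574 and 7164 genes in GM and on 7471 and 6294 in 3d DM. A peak that is broken up counts more than once: *Myh10* had 4 and 1 distinct peaks in GM versus 3 and 6 in 3d DM. *Myh4* and *Myh7* had a peak in each 3d DM library but none in GM, a pattern of 1.74% of the 11253 tested genes with a symbol. *Myh1*, *Myh2*, *Myh3*, *Myh9* and *Myh10* had a peak in all 4 libraries, as did 42.6% of those genes. *Myh8* lacked a peak in GM replicate 1.

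*Myh4*, *Myh7* and *Myh8* also had low values in GM, of 4.12 to 22.1, against 514 to 1835 in 3d DM. *Myh2*, which read 20.0 and 18.1 in GM, had a peak in both GM libraries. The part of the level in whether a peak was called was not tested. Among the other heavy chain genes, *Myh6* and *Myh7b* had peaks in both 3d DM libraries and none in GM, and *Myh11*, *Myh13*, *Myh14* and *Myh15* had none in any library.

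The long peaks of the members lay in the 3′ part of the coding sequence, which encodes the rod. In *Myh3* a single peak ran over 20 exon blocks from codon 845, 855, 827 and 824 of 1940 (GM replicates 1 and 2, then 3d DM replicates 1 and 2) to the end of the transcript. In *Myh9* the longest peak began at codon 820, 870, 820 and 820 of 1960, and in *Myh10* at codon 825, 885 and 918 of 2007 in the first 3 of these libraries. In 3d DM replicate 2 the same part of *Myh10* carried 6 separate peaks of 132 to 529 bases in place of 1. In *Myh7* the longest peak began at codon 856 and 836 of 1935 in 3d DM, and in *Myh4* at codon 829 of 1939 in 3d DM replicate 2. The longest peak began farther downstream in *Myh8*, at codon 1299 and 1309 of 1937 in 3d DM, and in *Myh4* in 3d DM replicate 1, at codon 1574. In *Myh1* it began at codon 1599, 1692, 1000 and 771 of 1942.

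Counted by coverage, peaks held 97.0%, 98.0%, 93.7% and 100% of the coding sequence of *Myh9* after its midpoint, and 36.8%, 23.6%, 32.7% and 28.7% before it. In *Myh3* they held 100% after the midpoint in all 4 libraries and 36.0%, 12.0%, 33.3% and 34.1% before it. Coverage after the midpoint exceeded that before it for every member with a peak in every library, which is 5, 6, 8 and 8 genes. Over the members with a peak the median coverage was 65.3% to 97.0% after the midpoint and 5.96% to 26.9% before it. Over other genes with a coding sequence of at least 5000 bases and a peak in it, 323 to 401 by library, the medians were 10.4% to 16.9% after and 6.21% to 14.1% before, and 56.1% to 69.6% of these genes had more coverage after the midpoint. The difference from those genes was not tested.

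A smaller region near the 5′ end of the coding sequence was also covered in several members. In *Myh3* it gave a peak with a fold enrichment of 18.4 in GM replicate 1, of 2.50 in 3d DM replicate 1 and of 3.35 in 3d DM replicate 2, and none in GM replicate 2. In *Myh9* it was covered in all 4 libraries, with fold enrichments of 2.85, 1.81, 2.66 and 2.80, and in *Myh1* in both 3d DM libraries with 1.72 and 2.90. No member had a covered base in the 5′ untranslated region in any library. *Myh9* had a further peak at the very end of its 3′ untranslated region, with fold enrichments of 3.62 and 2.51 in GM and of 3.63 and 3.06 in 3d DM.

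**Figure D4:**
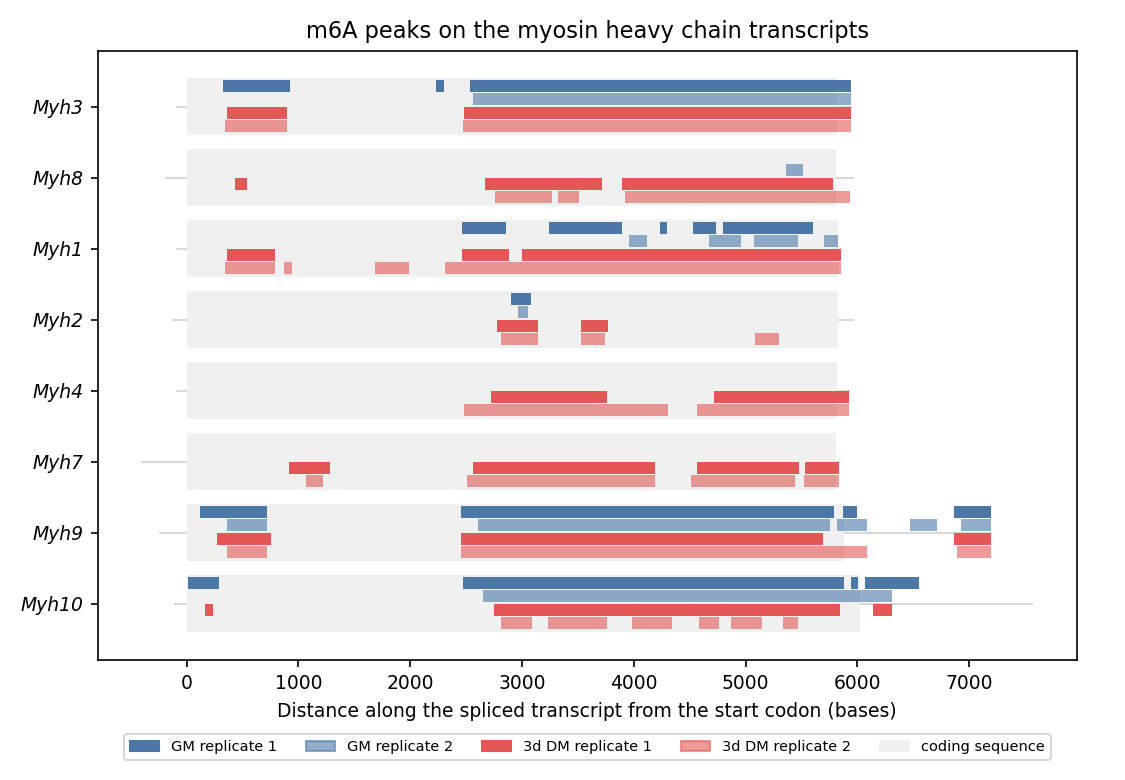
m6A peaks along the spliced transcript of each member, by distance from the start codon in bases, with 1 bar row per immunoprecipitated library and the coding sequence shaded. Peaks cover the 3′ part of the coding sequence in all members but *Myh2*, and *Myh4*, *Myh7* and *Myh8* have 0, 0 and 1 peak in GM.

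The longest peak of each member was then compared between states. For *Myh3* its fold enrichment was 21.9 and 6.87 in GM versus 4.81 and 4.72 in 3d DM. Both GM libraries were above both 3d DM libraries, with a log2 difference of -1.36 that rests largely on GM replicate 1 (without it, -0.53). For *Myh9* the values were 6.58 and 5.25 in GM versus 5.07 and 6.12 in 3d DM, which overlap (log2 difference -0.077). For *Myh10* they were 8.80 and 8.64 in GM versus 7.66 and 6.37 in 3d DM, a difference of -0.32. For *Myh1* they were 7.65 and 4.96 in GM versus 4.28 and 17.5 in 3d DM, with no order between the states. The two-sided exact permutation test gave p = 0.33 for *Myh3*, *Myh2* and *Myh10*, which is the smallest it can give, p = 0.67 for *Myh9* and p = 1 for *Myh1*.

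Among the members with a peak in all 4 libraries, *Myh1* had the widest gap in coverage between states. Peaks held 35.9% and 16.0% of its transcript in GM versus 62.5% and 73.5% in 3d DM. Its GM peaks were 5 pieces in replicate 1 and 4 in replicate 2, of 61 to 810 bases, and in 3d DM replicate 2 a single peak covered 3625 exon bases. *Myh3* was at 67.6% and 56.1% in GM versus 66.4% and 66.8% in 3d DM, which overlap. *Myh9* was at 58.93% and 57.74% in GM versus 54.49% and 57.70% in 3d DM, so that both GM values lay above both 3d DM values, by a narrow margin. *Myh4*, *Myh7* and *Myh8* went from at most 2.46% in GM to between 37.4% and 52.9% in 3d DM. *Myh10* went the other way, with 55.0% and 47.7% in GM versus 43.5% and 23.0% in 3d DM.

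Within the peaks the DRACH motif, in which D is A, G or T, R is A or G and H is A, C or T, is the sequence in which m6A is deposited. It occurred 19.3 to 28.2 times per kb inside the peaks of any library and 19.1 to 28.0 times per kb outside them, and it was denser inside for 6 members and denser outside for *Myh3* and *Myh7*. The 60 bases of coding sequence with the most DRACH sites among those covered in all 4 libraries are shown for the members with long shared peaks, with the sites in capitals. They lie within 1 exon each, at chr11:67093137-67093196 in *Myh3* (4 sites), at chr15:77774564-77774623 on the minus strand in *Myh9* (5 sites) and at chr11:68793133-68793192 in *Myh10* (4 sites).
Myh3: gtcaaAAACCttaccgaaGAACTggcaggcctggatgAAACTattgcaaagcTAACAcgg
Myh9: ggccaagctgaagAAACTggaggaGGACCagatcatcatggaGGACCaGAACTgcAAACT
Myh10: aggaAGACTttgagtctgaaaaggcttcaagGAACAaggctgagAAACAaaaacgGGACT

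*Myh2* differed from the other members in its peaks. Over all libraries pooled they covered 13.4% of its transcript, and 92 bases at chr11:67188679-67188770, within 1 coding exon and beginning at codon 987, lay in a peak in all 4 libraries. The fold enrichment of that peak was 9.62 and 7.04 in GM versus 6.35 and 6.31 in 3d DM. Of the bases inside *Myh2* peaks 87.1% fell in 50-base words that occur in another gene, against 43.3% outside. The shares inside and outside peaks were 50.2% and 49.8% in *Myh1*, 47.9% and 30.8% in *Myh8* and 43.4% and 30.6% in *Myh4*. They were 48.2% and 36.0% in *Myh7* and 14.8% and 13.2% in *Myh3*. For *Myh9* and *Myh10* the share inside peaks was 0%.

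The 92 bases of *Myh2* and their best ungapped counterparts in the other clustered genes show how alike they are. In *Myh2* the DRACH sites are in capitals, and in the other genes the bases that differ from *Myh2* are.
Myh2: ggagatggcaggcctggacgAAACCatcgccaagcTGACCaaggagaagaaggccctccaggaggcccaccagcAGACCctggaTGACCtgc
Myh1: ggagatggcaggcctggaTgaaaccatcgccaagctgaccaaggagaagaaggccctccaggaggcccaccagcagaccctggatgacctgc
Myh8: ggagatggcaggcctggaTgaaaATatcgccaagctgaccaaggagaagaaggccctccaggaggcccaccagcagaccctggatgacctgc
Myh4: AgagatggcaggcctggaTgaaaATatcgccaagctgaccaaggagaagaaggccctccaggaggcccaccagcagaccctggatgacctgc
Myh3: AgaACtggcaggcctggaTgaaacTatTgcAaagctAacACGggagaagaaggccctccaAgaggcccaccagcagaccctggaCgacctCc

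*Myh1* (chr11:67213580-67213671) differed at 1 of the 92 positions, with an identical run of 73 bases, *Myh8* (chr11:67297463-67297554) at 3 and *Myh4* (chr11:67252199-67252290) at 4, with identical runs of 67 bases. *Myh3* (chr11:67093154-67093245) differed at 14, with a longest identical run of 23. The whole counterpart lay in a peak in 4 libraries for *Myh3*, in 2 for *Myh8* and *Myh4*, and in 1 for *Myh1*. In GM, where *Myh2* read 20.0 and 18.1, *Myh1* read 161 and 187 and *Myh3* 1068 and 273. The 92 bases that lay in a *Myh2* peak in all 4 libraries are thus identical in *Myh1* but for 1 base. The peak was longer in GM replicate 1 (181 bases) and in 3d DM replicates 1 and 2 (361 and 331 bases). Its full length was not compared base by base with *Myh1*. The part of reads from other members in the *Myh2* peak was not tested.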

How the data were processed

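RNA-seq of 4 input and peak calls of 4 immunoprecipitated C2C12 libraries, 2 per state, were taken from the deposited files, and all were used. The authors aligned trimmed reads to mm10 with HISAT2 2.1.0, and their expression table holds an edgeR-normalized signal, whose name refers to TMM scaling. Columns sum to nearly the same total, and whole reads could not be recovered, so the depth is unknown, no counting error is given and a count test was not run. The peak lists deposited by the authors give, per peak and protein-coding transcript, the p-value and the fold enrichment (ratio of immunoprecipitated over input) of exomePeak, with a stated threshold of 0.05.

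Expression was tested with limma 3.58.1 (R 4.3.3) on log2(value + 1), with the trend option and p-values adjusted by Benjamini-Hochberg over 11406 genes. These reached a value of 25.1 (2 CPM of the column sum) in 2 or more libraries. A fold change on this scale understates that of low genes. The step was tested on simulated data of this comparison with 11406 genes, where 200 of 200 planted 4-fold changes were called together with 6 others. The simulated spread was the same for every gene and was not taken from these data, so this recovery does not carry over to them. Peak lines of 1 gene that share a base were merged into distinct peaks. Peak coordinates are counted from 1. Transcripts, exons and coding sequences are those of GENCODE M21, promoters those of RefSeq, both on GRCm38. Shares and peak counts were compared with the two-sided exact permutation test. Other steps ran in Python 3.11.15 (scipy 1.17.1, pandas 2.3.3, numpy 2.4.6).

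The members and the gene lists were chosen with earlier results of these data known. Named are all members and, of each list, at most the 4 called genes of largest change. Also named are *Myog*, *Ckm*, *Mymk*, *Mki67* and *Ccnb1* as checks of the state, and the 3 genes outside the lists most like each of *Myh3* and *Myh9*. *Ccnb1* read 1464 and 1824 in GM versus 128 and 290 in 3d DM. Of myoblast markers *Des* rose, *Myf5* fell and 2 of 4 did not pass, all 5 myotube markers rose and all 3 markers of division fell. Alternatives were other filters, pseudocounts, rescalings, a replicate block, stricter peaks, other lengths and each library left out. The comparison of longest peaks was added after seeing the data. Replicate numbers are shared between states, but nothing shows that they pair the libraries.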

Additional observations from a re-analysis of the deposited data

How the results depend on the processing

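The 6 sarcomeric members kept their direction in every alternative in which they were tested. They were called higher with the replicate block, with pseudocounts of 0.1 and 4, without the trend, after both rescalings and in every fit that left out 1 library (lowest and highest count 6). *Myh2*, *Myh4*, *Myh7* and *Myh8* passed the main filter only through 3d DM and had to differ, so only the calls of *Myh1* and *Myh3* carry weight here. With the filter met in 3 libraries, as the methods state, or in 4 libraries, those 4 genes were not tested and the count was 2. With no filter limma called 0 (6 higher at an unadjusted p under 0.05), with unchanged log2 differences and adjusted p of 0.0735 to 0.270, and 80 genes in all were then called higher and 74 lower. *Myh10* was called lower after median-of-ratios and after trimmed-mean rescaling, so that the count of lower members was 1 in both.

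Over all genes, 800 were called higher and 1136 lower. The higher count was 524 and 422 with the filter in 3 and 4 libraries, and 1365 and 1343 after median-of-ratios and trimmed-mean rescaling, where the share of higher calls went from 41.3% to 51.6% and 50.3%. It ranged from 101 (without 3d DM replicate 1) to 679 (without GM replicate 1) with a library left out, and the lower count from 44 (without 3d DM replicate 1) to 573 (without GM replicate 1). With the replicate block 593 genes were called higher and 705 lower, and *Myh10* had an adjusted p of 0.278. The deviations of replicates 1 from their state mean correlated with r = 0.29 over genes, with 2 pairs only, so the numbers are not shown to pair the libraries.

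The share of nonmuscle genes differed by -79.3 points with the length of the longest coding transcript, by -77.6 with no length, by -81.0 with the replicate block, and by -85.5 to -76.5 with a library left out. The excess of distinct peaks in 3d DM was 9.50, 11.5 with a p-value of at most 1e-05, 6 with a fold enrichment of at least 4, and 7 to 12 with a library left out. The excess of members with a peak was 2.50, 4.50 at 1e-05, and 2 to 3 with a library left out. Neither the 50% overlap nor the whole span changed either count. The main excesses rest largely on *Myh4*, *Myh7* and *Myh8*, which passed the filter only through 3d DM, so they are no support for a difference. The longest peak of *Myh1* reversed to -0.057 when chosen by the lowest p-value, and ranged from -0.53 (without 3d DM replicate 2) to 1.51 (without 3d DM replicate 1). That of *Myh9* ranged from -0.24 (without GM replicate 2) to 0.085 (without GM replicate 1), and was 0.058 without 3d DM replicate 1. With 100-base words the share of words found in another gene was 0.304% to 11.2%, against 0.958% to 27.4% with 50-base words. The cause of these changes was not tested.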
